A study of Mus musculus with 8 samples.

Results

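The nuclear genes for the subunits of the mitochondrial respiratory chain and ATP synthase were examined in BMEL cells, an immortalised line of bipotential mouse embryonic liver cells, with and without ectopic GRHL2. They were chosen by symbol alone, as the rows beginning with Nduf followed by a, b, c, s or v, Sdh followed by a to d, Uqcr, Cox with a numeral of the terminal oxidase subunits, or Atp5, leaving out Ndufaf genes and rows marked as pseudogenes. This took 87 of the 18671 genes in the table: 41 of complex I, 8 of complex II, 8 of complex III, 13 of complex IV and 17 of complex V. The rule also took 4 assembly factors of complex II (Sdhaf1, Sdhaf2, Sdhaf3 and Sdhaf4), which are counted apart from its 4 subunits.

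The series holds 8 RNA-seq samples, harvested 48 h after transient transfection. The 4 GRHL2 samples (replicates 1 to 4) received a plasmid with the human GRHL2 cDNA fused to a Flag tag behind the EF1A promoter, which also encodes enhanced green fluorescent protein. The 4 pcDNA3 samples (replicates 1 to 4) received the pcDNA3 vector, which is a different backbone and not the same plasmid without its insert. All 8 are bulk cultures of 1 cell line, in which transfected and untransfected cells were harvested together, so that fewer cells expressing a gene and less RNA per cell cannot be told apart.

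Complexes I and II pass electrons from NADH and succinate to ubiquinone, complex III passes them on to cytochrome c, and complex IV reduces oxygen with them. Complexes I, III and IV pump protons, and complex V, the ATP synthase, uses the resulting gradient to make ATP. Most subunits are encoded in the nucleus and imported, while a small set of core subunits is encoded by mitochondrial DNA, and transcription of the nuclear set is known to be governed by factors that include NRF1, the ETS factor GABP, YY1 and the oestrogen-related receptors together with PGC-1 coactivators.

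The promoters of the members that turned out to be called by either fit described below are shown first, together with that of Atp5k, which carries matches to several of the factors named above. Each runs from 250 bases before to 50 bases after the gene's start (RefSeq, GRCm38.p6), and capitals mark matches to the motifs searched. The window of Atp5pb, which encodes subunit b of the peripheral stalk, lies on the minus strand at chr3:105959214-105959513 and its capitals mark a YY1 match. That of Atp5b, the catalytic beta subunit of F1, lies on the plus strand at chr10:128083057-128083356 and holds no match. Those of Ndufab1, the mitochondrial acyl carrier protein (minus strand, chr7:122101799-122102098), and of Sdha, the flavoprotein of complex II (minus strand, chr13:74350191-74350490), hold none either. In the window of Atp5k, subunit e of ATP synthase (minus strand, chr5:108434350-108434649), the capitals mark in order an NRF1 palindrome, an ETS match and an ERR match.
Atp5pb: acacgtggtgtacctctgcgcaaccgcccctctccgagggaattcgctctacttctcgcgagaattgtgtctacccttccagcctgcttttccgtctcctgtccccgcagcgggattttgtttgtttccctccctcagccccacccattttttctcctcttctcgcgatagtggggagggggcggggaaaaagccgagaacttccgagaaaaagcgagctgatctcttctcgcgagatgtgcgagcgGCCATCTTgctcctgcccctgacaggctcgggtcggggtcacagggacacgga
Atp5b: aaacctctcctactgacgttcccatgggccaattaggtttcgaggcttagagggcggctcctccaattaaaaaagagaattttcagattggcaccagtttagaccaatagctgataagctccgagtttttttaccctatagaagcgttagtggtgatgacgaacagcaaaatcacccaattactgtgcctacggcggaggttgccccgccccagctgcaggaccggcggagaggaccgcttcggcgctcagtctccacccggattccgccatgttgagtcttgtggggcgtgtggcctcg
Ndufab1: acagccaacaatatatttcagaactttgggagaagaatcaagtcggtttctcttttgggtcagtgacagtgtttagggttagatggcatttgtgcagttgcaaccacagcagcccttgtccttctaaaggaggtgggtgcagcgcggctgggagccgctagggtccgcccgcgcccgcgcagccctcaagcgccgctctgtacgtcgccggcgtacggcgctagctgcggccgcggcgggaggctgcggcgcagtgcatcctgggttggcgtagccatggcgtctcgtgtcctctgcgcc
Sdha: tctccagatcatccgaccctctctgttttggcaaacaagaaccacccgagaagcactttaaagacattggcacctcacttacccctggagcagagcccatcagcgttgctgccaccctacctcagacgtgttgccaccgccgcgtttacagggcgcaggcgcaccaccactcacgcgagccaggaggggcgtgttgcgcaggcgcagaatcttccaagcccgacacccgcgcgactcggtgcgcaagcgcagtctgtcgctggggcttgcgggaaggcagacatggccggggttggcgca
Atp5k: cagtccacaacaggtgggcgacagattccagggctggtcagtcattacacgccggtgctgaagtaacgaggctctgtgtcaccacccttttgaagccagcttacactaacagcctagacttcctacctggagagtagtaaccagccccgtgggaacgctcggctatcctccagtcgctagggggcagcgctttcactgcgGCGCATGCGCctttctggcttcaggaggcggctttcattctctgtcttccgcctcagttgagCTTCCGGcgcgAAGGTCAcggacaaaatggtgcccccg

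Promoter windows of 300 bases were matched by symbol for 70 of the 87 genes and gave 75 windows. Exact letters were searched on both strands, GCATGCGC for NRF1 (a full palindrome matches on both strands and overlaps itself), CCGGAAG for ETS factors, AAGATGGC for YY1, AAGGTCA for oestrogen-related receptors (ERR) and AACCNGTT for grainyhead factors, the family of GRHL2. At least 1 of the first 4 motifs was found in 38 of the 75 windows (50.7%), against 17.6% of all 32851 promoter windows of the same length. The ETS letters were in 20 windows (26.7%, against 8.86% of all), including Sdhb, Sdhd, Cox6b1 and Cox8a. The NRF1 letters were in 10 (13.3%, against 2.71%), including Uqcrc1, Uqcr11 and Cox6a1. The YY1 letters were in 10 (13.3%, against 2.75%), 7 of complex I and 3 of complex V. The ERR letters were in 8 (10.7%, against 4.72%), and the grainyhead letters were in 0 of the 75 windows, against 2.09% of all. These shares describe letters in these windows and were not tested.

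The deposited values are on a log2 scale and relative to transcript length, so that levels can be compared between genes only on that scale. The median level over the 8 samples was 9.91 for the 87 genes, against 6.45 for all genes. By complex, the median level was 9.48 for complex I, 9.76 for complex II, 10.38 for complex III, 11.04 for complex IV and 11.16 for complex V. Atp5b had the highest level of all 87 genes, at 14.91 ± 0.039 in pcDNA3 samples (mean ± SD, n = 4). In the other complexes the highest levels in pcDNA3 samples were those of Cox8a (12.68 ± 0.15), a small membrane subunit of complex IV, Sdha (12.27 ± 0.067), Uqcrc2 (11.89 ± 0.063), a core protein of complex III, and Ndufv1 (11.41 ± 0.086), which binds the flavin of complex I (each mean ± SD, n = 4). The transcript models behind the lengths also enter a comparison of levels between genes.

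**Figure D1:**
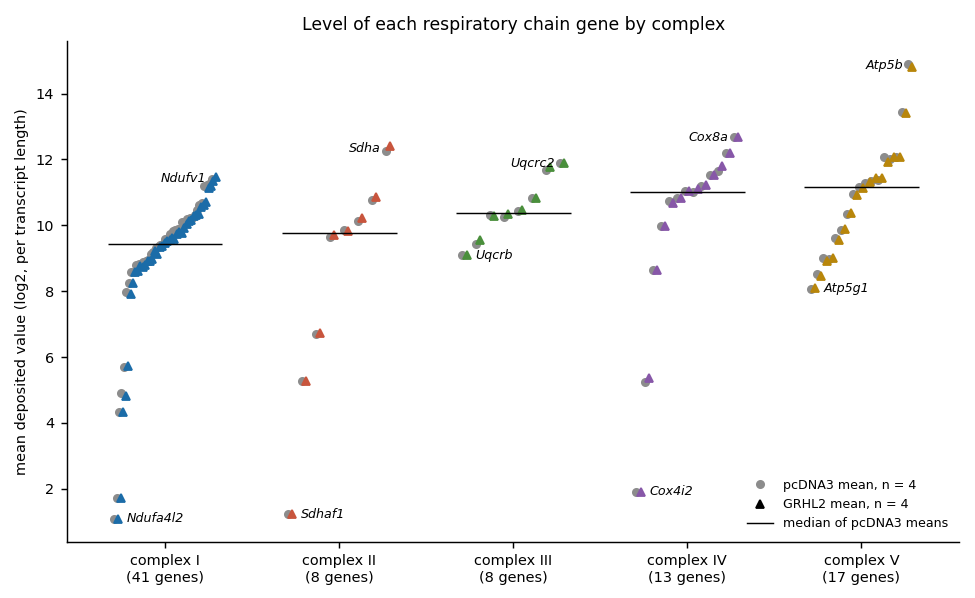
Mean deposited value (log2, relative to transcript length) of each of the 87 genes in the 4 pcDNA3 samples (grey circles) and the 4 GRHL2 samples (coloured triangles), sorted within each complex, with the median of the pcDNA3 means as a black line and the highest and lowest gene of each complex named. The circle and triangle of each gene lie close together over the whole range, from Ndufa4l2 at 1.09 to Atp5b at 14.86.

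Genes of low level were mostly isoforms or copies. The paralogs Ndufa4l2 (1.09), Ndufa11b (1.72), Ndufs6b (4.32) and Ndufb4c (5.71) had a median level of 3.02, against 9.40 for the 30 supernumerary subunits of complex I. In complex IV, Cox4i2, known as the isoform of lung and hypoxic cells, stood at 1.92 ± 0.052 in pcDNA3 samples, whereas its widespread counterpart Cox4i1 stood at 12.20 ± 0.071. Likewise the heart and muscle isoform Cox7a1 stood at 5.24 ± 0.042 and its widespread counterpart Cox7a2 at 10.83 ± 0.082 (each mean ± SD, n = 4). Sdhaf1, an assembly factor that helps insert iron-sulphur clusters, was the lowest of complex II at 1.24 ± 0.027. Ndufb2, an ordinary accessory subunit, was an exception at 4.87 over the 8 samples, and its exons overlap those of Braf and of 2 other annotated genes. No value was found for the 13 subunits encoded by mitochondrial DNA under the symbols searched, and they were not analysed here.

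The mouse Grhl2 row was at 6.30, 6.96, 5.65 and 6.05 in GRHL2 replicates 1 to 4 and at 4.68, 4.57, 4.42 and 4.44 in pcDNA3 replicates 1 to 4. The groups did not overlap, and the difference was 1.71 on the log2 scale (limma, Benjamini-Hochberg adjusted p = 0.001). Whether the reads of this row come from the human cDNA or from the mouse gene was not tested. Of 10 hepatoblast and biliary progenitor markers, 9 were in the table and all 9 had a mean of at least 5, led by Krt8 at 15.36. The hepatocyte marker Alb reached 5.22. The highest marker of other cells was at 6.17 for immune cells (Cd68), 5.28 for fibroblasts (Col1a1), 3.55 for erythroid cells and 3.29 for endothelial cells. Of the striated muscle markers, Tnnt2 stood at 11.48, and the summed level of that list was 11.41 to 11.59 in GRHL2 and 11.25 to 11.53 in pcDNA3 samples (log2). The total reads behind each sample are unknown, and the upper quartile of all values was between 8.85 and 8.86 in the GRHL2 samples and between 8.87 and 8.90 in the pcDNA3 samples. Scaling to an equal upper quartile or sum changed which members were called.

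One control, pcDNA3 replicate 2, stood apart in the respiratory chain genes, and some other mitochondrial lists, though not the nuclear regulators, were low in it as well. After each gene was centred on its mean over the 8 samples, the median of the 87 genes was -0.12 in pcDNA3 replicate 2, and 0.034, 0.043 and 0.026 in pcDNA3 replicates 1, 3 and 4. It was -0.0048, -0.012, 0.0010 and 0.049 in GRHL2 replicates 1 to 4. The low control was therefore below every other sample, and the GRHL2 samples lay between it and the remaining controls with the exception of GRHL2 replicate 4, which was the highest.

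Of the 87 genes, 55 had their lowest value of all 8 samples in pcDNA3 replicate 2 (63.2%), against 18.5% of all genes and 25% of all genes with a mean of at least 5. Its level was the lowest of the 4 controls in 71 of the 87 (81.6%, against 27.1% of all genes). Complex III was the clearest case, where all 8 genes were lowest there and the median gap to the mean of the other 3 controls was -0.25, against -0.16 for the 87 genes and 0.0040 for all genes. The widest gaps of single genes were those of Ndufb7 (-0.40), Sdhc (-0.38) and Ndufs8 (-0.36). Short transcripts in general were lower in this sample. Among genes with a mean of at least 5, the median gap was -0.090 for the 2031 with a mean transcript length under 1000 bp, -0.016 for 1000 to 2000 bp and 0.074 for longer ones. It was -0.17, -0.12 and -0.24 for the 61, 15 and 3 members of those classes. Atp5pb and Atp5md carry older symbols in the transcript annotation and are missing from these classes. The median transcript length of the members was 763 bp, against 1679 bp for all genes. Against the other controls the median gap of related lists was -0.19 for 6 carrier and uncoupling genes, -0.098 for 76 mitochondrial ribosomal proteins (lowest of the controls in 76.3%) and -0.085 for 52 assembly factors (63.5%). It was -0.041 for genes of the TCA cycle and pyruvate dehydrogenase, -0.016 for import genes and 0.039 for nuclear regulators. What part length has in the low values of the members was not tested.

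**Figure D2:**
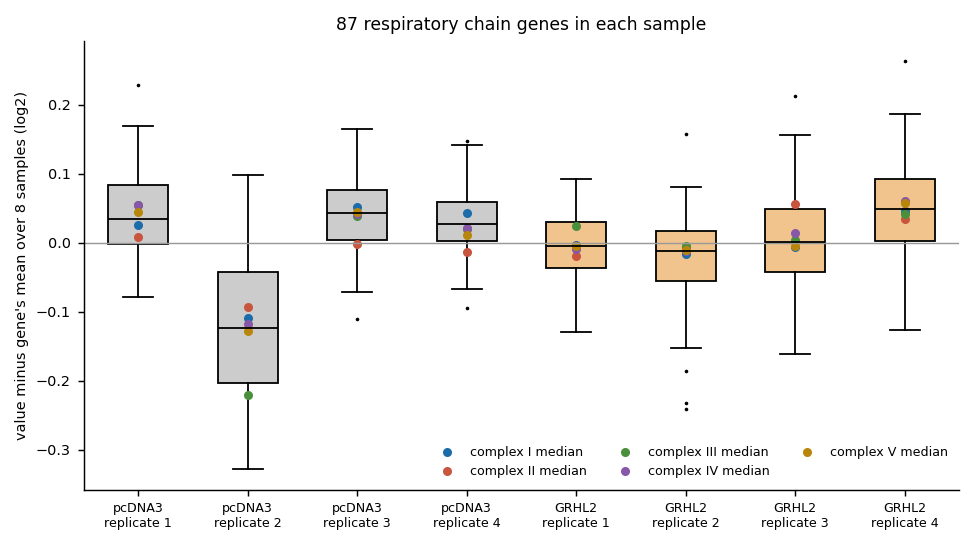
Value of each of the 87 genes less that gene's mean over the 8 samples (log2), by sample, for pcDNA3 (grey boxes) and GRHL2 (orange boxes) replicates; boxes span the quartiles with the median as a line, whiskers reach 1.5 times the box height, small dots are genes beyond them and coloured points are the medians of the 5 complexes. In pcDNA3 replicate 2 the median lies at -0.12 and that of complex III at -0.22, while the other 7 samples have medians from -0.012 to 0.049.

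The main comparison asks whether the subunit genes changed with ectopic GRHL2. In a linear model of the 2 groups over all genes, 0 of the 87 were called higher and 1, Atp5pb, was called lower (limma, Benjamini-Hochberg adjusted p under 0.05), while 10.5% of all genes were called higher and 5.91% lower. An unadjusted p under 0.05 was found for 6 of the 87, against 5796 of the 18671 genes. Because samples of the same replicate number deviated together, the same model was also fitted with the number as a block. With the block, 1 gene was called higher (Sdha) and 3 lower (Atp5b, Atp5pb and Ndufab1), against 18.2% and 13.9% of all genes, and 9 of the 87 had an unadjusted p under 0.05, against 7912 of the 18671 genes. In 2 genes every GRHL2 sample was above every control (Sdha and Cox7a1) and in 2 every GRHL2 sample was below (Atp5b and Atp5pb), against 14.3% and 9.47% of all genes. In all these counts the members' share was below that of all genes. Of the 87, 81 had a mean of at least 5. Among all genes with such a mean, 6.69% were called higher and 8.38% lower without the block.

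The fitted differences were small. They ran from -0.15 (Ndufa12) to 0.16 (Cox6b1) on the log2 scale, with 46 above 0 and 41 below. The median was 0.014, against 0.0066 for all genes and -0.011 for all genes with a mean of at least 5. The median absolute difference was 0.038, against 0.061 for all genes. In 86 of the 87 genes (98.9%, against 78.6% of all genes) the whole 95% interval lay within 0.3 of 0, with Cox6b1 (upper bound 0.32) as the exception. Taken over the 87 genes, the intervals reached from 0.815 to 1.25 times the control level. The median distance from a fitted value to the end of its interval was 0.14. The low control moves the centre of the set. Without pcDNA3 replicate 2 the median difference was -0.030 and 26 of the 87 values were above 0. For all genes the median without that sample was 0.0056, with 9960 of 18671 above 0. For all genes with a mean of at least 5 it was -0.015, with 4842 of 10973 above 0. By complex the median was then -0.041, -0.0039, -0.018, -0.038 and -0.033 for complexes I to V, against 0.0046, 0.042, 0.032, -0.0034 and 0.020 with all samples.

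**Figure D3:**
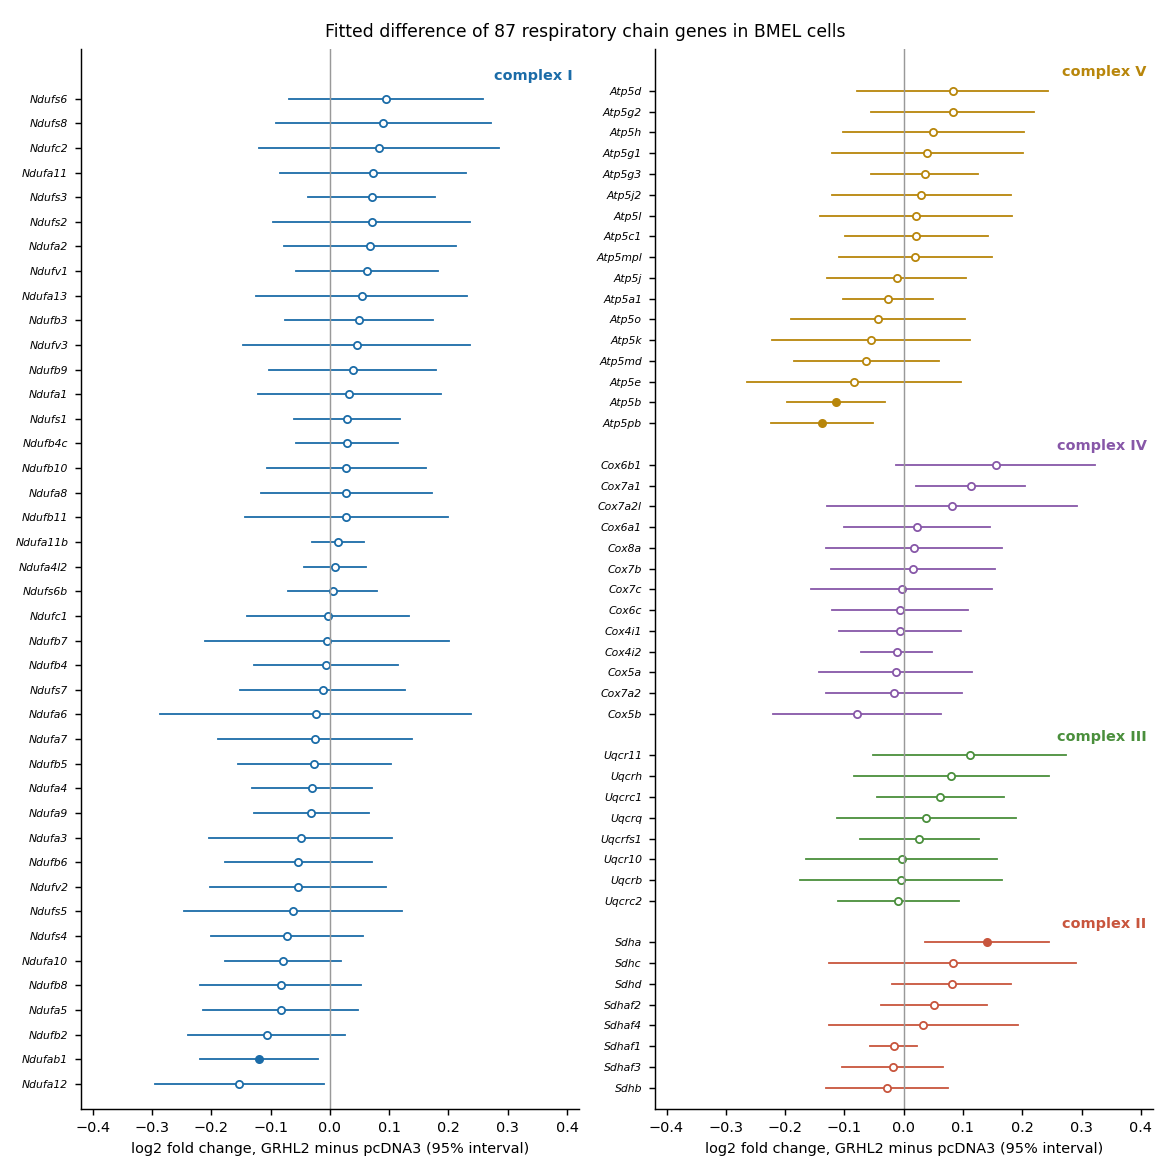
Fitted log2 fold change (GRHL2 minus pcDNA3, n = 4 each) of the 87 genes with its 95% interval from limma, complex I in the left panel and complexes II to V in the right; filled points passed an adjusted p of 0.05 with the replicate number as a block. Values lie between -0.15 and 0.16, and the 4 filled points are Ndufab1, Atp5b and Atp5pb below 0 and Sdha above 0.

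In complex I 0 of 41 genes passed the limma test without the block and 1 passed with it, while 2 and 3 had an unadjusted p under 0.05 (5796 and 7912 of all 18671 genes). The median difference was 0.0046, and -0.041 with 13 of 41 values above 0 without pcDNA3 replicate 2. The 7 core subunits, which carry the flavin, the iron-sulphur clusters and the quinone site, had a median difference of 0.062 with 5 values above 0, among them Ndufs8 (0.090 ± 0.081, SE) and Ndufs3 (0.071 ± 0.048, SE). The 30 supernumerary subunits had a median of -0.015 with 18 below 0. This contrast between classes is a description and was not tested, and without pcDNA3 replicate 2 the medians were 0.0077 and -0.049. Without that sample Ndufs8 differed by -0.00054 and Ndufs3 by 0.049.

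Ndufab1 belongs to the supernumerary class and also serves mitochondrial fatty acid synthesis. It stood at 9.92, 9.83, 9.93 and 9.90 in pcDNA3 replicates 1 to 4 and at 9.78, 9.73, 9.83 and 9.76 in GRHL2 replicates 1 to 4. Every GRHL2 sample was below the control of its own number, although GRHL2 replicate 3 (9.831) just exceeded pcDNA3 replicate 2 (9.830), so that the groups touched. The difference was -0.12 ± 0.044 (SE), with an adjusted p of 0.0973 without and 0.0239 with the block (limma, Benjamini-Hochberg). The blocked call was lost at an equal upper quartile (0.0522), at an equal sum (0.0541) and without replicate 1, 3 or 4 in both groups. Ndufa12, an accessory subunit of the peripheral arm, had the lowest fitted difference of the 87. Its values were 9.89, 9.62, 9.75 and 9.70 in controls and 9.61, 9.67, 9.52 and 9.55 in GRHL2 samples. GRHL2 replicate 2 was above its control and the other 3 were below theirs, and the adjusted p was 0.136 without and 0.0589 with the block.

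Ndufv1 had the highest level of complex I in both groups, and its difference was 0.062 ± 0.054 (SE, adjusted p = 0.476 in limma), or 0.030 without pcDNA3 replicate 2. At the other end Ndufa4l2, a paralog known to be induced in hypoxia, was at 1.07 in 5 of the 8 samples and at 1.08, 1.13 and 1.16 in the others. Ndufa4, which is named for complex I but is now assigned to complex IV, stood at 11.24 ± 0.068 in pcDNA3 and 11.21 ± 0.027 in GRHL2 samples (mean ± SD, n = 4), with a difference of -0.030 ± 0.045 (SE), or -0.055 without pcDNA3 replicate 2.

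In complex II the median difference was 0.042 over its 8 genes and 0.082 over its 4 subunits. Without pcDNA3 replicate 2 they were -0.0039 (4 of 8 values above 0) and 0.019. Sdha, which binds FAD and oxidises succinate, was at 12.29, 12.17, 12.31 and 12.31 in pcDNA3 replicates 1 to 4 and at 12.43, 12.33, 12.46 and 12.42 in GRHL2 replicates 1 to 4. The groups did not overlap, the sample nearest to the other group being GRHL2 replicate 2, and pcDNA3 replicate 2 was the lowest of the 8. The difference was 0.14 ± 0.047 (SE), 10.2% above the control level. Its exact two-sided permutation p was 0.0286, the smallest that 4 against 4 samples allow. The adjusted p was 0.0676 without and 0.00486 with the block (limma, Benjamini-Hochberg). Without pcDNA3 replicate 2 the difference was 0.11, with an adjusted p of 0.102.

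The other subunits of complex II were not called. The membrane anchors Sdhc and Sdhd differed by 0.082 ± 0.093 and 0.081 ± 0.045 (SE), and the iron-sulphur subunit Sdhb by -0.029 ± 0.046. Without pcDNA3 replicate 2 these differences were -0.013, 0.052 and -0.053. Among the assembly factors the differences ran from -0.018 (Sdhaf3) to 0.051 (Sdhaf2, which attaches FAD to Sdha), and none was called in either fit.

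In complex III none of the 8 genes was called in either fit, and none had an unadjusted p under 0.05. The core proteins Uqcrc1 and Uqcrc2 differed by 0.062 ± 0.048 and -0.0092 ± 0.046 (SE). The Rieske iron-sulphur protein Uqcrfs1 differed by 0.026 ± 0.045. Without pcDNA3 replicate 2 these differences were 0.021, -0.040 and -0.0046. Among the 5 small subunits, the differences ran from -0.0042 for Uqcrb, the lowest of the complex at 9.09 ± 0.16 in controls (mean ± SD, n = 4), to 0.11 ± 0.073 (SE) for Uqcr11, and these were -0.079 and 0.056 without pcDNA3 replicate 2. The control SD had a median of 0.14 in this complex and 0.035 without pcDNA3 replicate 2, and the median difference turned from 0.032 to -0.018 without that sample. Cytochrome c1 (Cyc1), the haem subunit that the symbol rule does not take, differed by 0.048 ± 0.049, and cytochrome c (Cycs) by -0.063 ± 0.077 (SE), and neither was called in either fit.

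In complex IV none of the 13 genes was called in either limma fit, and 1 had an unadjusted p under 0.05 without and 2 with the block. Cox6b1, which faces the intermembrane space near the cytochrome c site, had the largest fitted difference of the 87 at 0.16 ± 0.075 (SE, adjusted p = 0.193 in limma, 0.072 with the block). Its values were 11.73, 11.42, 11.77 and 11.68 in controls and 11.70, 11.81, 11.86 and 11.85 in GRHL2 samples. The groups overlapped through GRHL2 replicate 1, and pcDNA3 replicate 2 was 0.30 below the mean of the other controls. Without that sample the difference was 0.079.

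Isoform pairs of complex IV gave the following values. Cox7a1 was at 5.26, 5.23, 5.18 and 5.28 in controls and at 5.34, 5.28, 5.38 and 5.41 in GRHL2 samples. The groups were only narrowly apart, between pcDNA3 replicate 4 (5.2794) and GRHL2 replicate 2 (5.2796). The difference was 0.11 ± 0.041 (SE), with an exact permutation p of 0.0286 and an adjusted p of 0.0905 without and 0.0531 with the block (limma). Among 5 striated muscle markers measured, 2 were called higher, against 10.5% of all genes. Of 4 fibroblast, 4 erythroid, 4 brown fat and 9 hepatoblast markers, 1 each was called higher. The brown fat and hepatoblast lists also held 1 marker each that was called lower, against 5.91% of all genes. The hepatocyte, immune and endothelial lists held 0 calls. The part of such markers in the Cox7a1 value was not tested. The widespread isoform Cox7a2 differed by -0.016 ± 0.051. Cox7a2l, which joins complexes III and IV into supercomplexes, differed by 0.082 ± 0.094 and by 0.0017 without pcDNA3 replicate 2. Cox4i1 and Cox4i2 differed by -0.0067 ± 0.046 and -0.012 ± 0.027 (SE). Cox6a1, Cox7b and Cox8a differed by 0.023, 0.016 and 0.018, each below its SE, and by -0.030, -0.038 and -0.054 without pcDNA3 replicate 2. Cox7a2 and Cox4i1 differed by -0.056 and -0.041 without it. No row was found here for Cox6a2, Cox6b2, Cox7b2, Cox8b or Cox8c.

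Complex V held the only gene called in the fit without the block. Atp5pb was at 12.14, 12.03, 12.04 and 12.06 in pcDNA3 replicates 1 to 4 and at 11.93, 11.91, 11.94 and 11.92 in GRHL2 replicates 1 to 4. All GRHL2 samples were below all controls, and their spread was narrow (SD 0.011, against 0.049 in controls). Atp5pb fell by 0.14 on the log2 scale (SE 0.039), to 0.909 times the control level. The adjusted p was 0.0369 without and 0.00906 with the block (limma, Benjamini-Hochberg), and the exact permutation p was 0.0286. The call was kept without pcDNA3 replicate 2 (adjusted p = 0.0267) and lost when any of the other 7 samples was left out (adjusted p from 0.0648 to 0.103). Without the block it was also lost at an equal upper quartile (0.071), at an equal sum (0.0554) and with the GC and length correction (0.0764). The blocked call was lost without replicate 1 in both groups (0.0596). Exons of Atp5pb overlap those of Wdr77 and Gm42890 on the opposite strand, and the reads were counted without strand. The Wdr77 row differed by -0.20 (limma adjusted p = 0.143), and how far the overlap affects either row was not tested. The other 3 genes of the peripheral stalk, Atp5h, Atp5j and Atp5o, differed by 0.050, -0.012 and -0.043, and all values of the stalk were below 0 without pcDNA3 replicate 2.

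Atp5b showed a similar size of difference in the F1 head. It was at 14.96, 14.94, 14.90 and 14.87 in controls and at 14.85, 14.85, 14.78 and 14.73 in GRHL2 samples. The groups did not overlap, and pcDNA3 replicate 2 was not low in this gene. The difference was -0.11 ± 0.037 (SE), with an exact permutation p of 0.0286 and an adjusted p of 0.062 without and 0.00337 with the block (limma). No exon overlap with another gene was annotated for Atp5b. The alpha subunit Atp5a1, its partner in the catalytic hexamer, differed by -0.027 ± 0.034, and the gamma subunit Atp5c1 by 0.021 ± 0.054. Without pcDNA3 replicate 2 these were -0.041 and -0.026.

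Atp5g1, Atp5g2 and Atp5g3, which encode the same mature subunit c of the rotor ring, differed by 0.040, 0.082 and 0.035, and by -0.019, 0.028 and 0.013 without pcDNA3 replicate 2. None was called in either limma fit, and 1 had an unadjusted p under 0.05 in the blocked one. Their levels differed more among themselves than between groups, at 8.07 ± 0.13 for Atp5g1, 11.34 ± 0.11 for Atp5g2 and 12.03 ± 0.046 for Atp5g3 in controls (mean ± SD, n = 4). These levels are relative to transcript length, and the mean annotated lengths were 2666, 640 and 772 bp. What part length has in the gap between them was not tested. The small membrane subunits (Atp5j2, Atp5k, Atp5l, Atp5md and Atp5mpl) ran from -0.063 to 0.030, and none was called in either fit. All 5 were below 0 without pcDNA3 replicate 2.

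**Figure D4:**
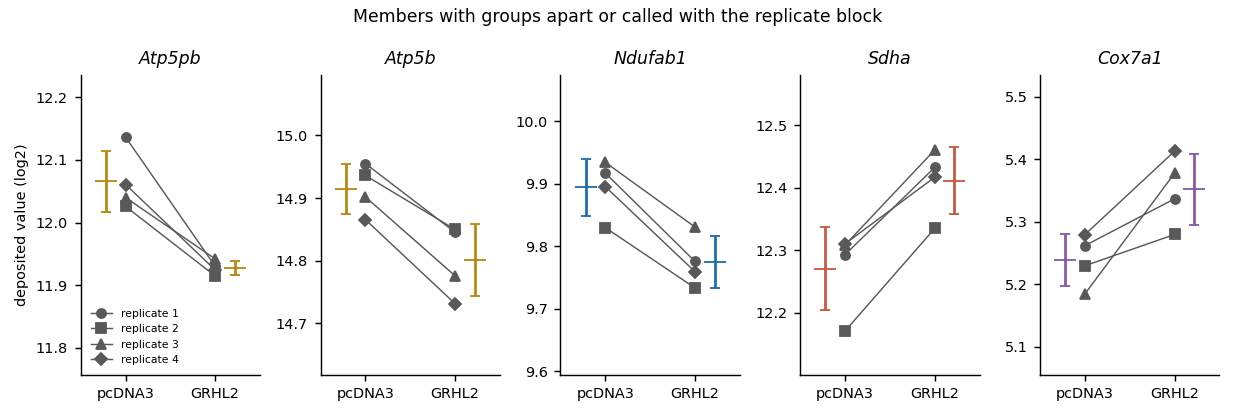
Deposited log2 value of Atp5pb, Atp5b, Ndufab1, Sdha and Cox7a1 in each pcDNA3 and GRHL2 sample, with lines joining samples of the same replicate number and coloured bars giving the mean ± SD of 4 samples; each panel spans the same range of 0.48. All 4 lines slope down in Atp5pb, Atp5b and Ndufab1 and up in Sdha and Cox7a1, by 0.11 to 0.14 on average.

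Replicates 1 and 2 and replicates 3 and 4 formed separate sets in the correlations between samples, although no source names a batch. Within replicates 1 and 2 the median difference of the 87 genes was 0.034, and within replicates 3 and 4 it was -0.0044. Leaving out both samples of replicate 2 in the blocked fit, an alternative added after the data were seen, gave 2 genes higher (Cox7a1 and Sdha) and 9 lower (Atp5b, Atp5k, Atp5pb, Cox5b, Ndufa10, Ndufa12, Ndufab1, Ndufs5 and Ndufv2), against 3167 and 2661 of all genes. Leaving out replicate 1, 3 or 4 in both groups gave 1 or 2 higher and 1 or 2 lower, against 2339 and 1755, 2475 and 1782, and 2633 and 1816 of all genes.

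Among the 87 genes, 33 share exon bases with another annotated gene and 54 do not. The 8 pseudogene rows left out by the rule gave no call. Atp5pb-ps, Ndufab1-ps and Ndufa12-ps differed by -0.026, -0.084 and -0.15 (limma adjusted p = 0.724, 0.319 and 0.27). How far reads that match both a gene and such a copy affect either row was not tested.

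Factors that build or regulate the complexes were read beside them. Of 52 assembly factors, the 4 Sdhaf genes included, 1 was called higher and 1 lower. Surf1, which helps build the haem site of complex IV, was at 9.33, 9.20, 9.33 and 9.30 in controls and at 9.58, 9.64, 9.59 and 9.64 in GRHL2 samples. It rose by 0.32 ± 0.047 (SE, limma adjusted p = 0.00174), more than any of the 87 members' fitted values, and the groups did not overlap. Ndufaf5, which modifies a core subunit of complex I, fell by 0.21 (adjusted p = 0.0135). With the block 4 assembly factors were called higher and 6 lower, against 18.2% and 13.9% of all genes.

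Among 18 nuclear regulators 1 was called higher and 1 lower without the block. Gabpb1, the partner of the ETS factor Gabpa, was at 9.02, 9.17, 8.99 and 8.97 in controls and at 8.66, 8.74, 8.62 and 8.58 in GRHL2 samples. The groups did not overlap, and it fell by 0.39 ± 0.057 on the log2 scale (SE, limma adjusted p = 0.00189). Esrrg, an oestrogen-related receptor, was near the bottom of the scale, at 0.757 ± 0.0032 in controls and 0.898 ± 0.063 in GRHL2 samples (mean ± SD, n = 4), and rose by 0.14 (adjusted p = 0.00733). With the block, 5 were called lower, namely Gabpb1, Gabpa (-0.15), Yy1 (-0.22), Tfb2m (-0.23), a mitochondrial transcription factor, and the coactivator Pprc1 (-0.20). In all 5, pcDNA3 replicate 2 was the highest of the 8 samples, at 10.49 for Gabpa, 9.68 for Yy1, 9.54 for Tfb2m and 11.23 for Pprc1. The median difference of the 18 regulators was -0.0514, and -0.0345 without that sample. Esrrg was again called higher with the block (limma adjusted p = 0.00227). Nrf1 (-0.050), Esrra (-0.053), Tfam (-0.073) and Ppargc1a (0.046) were not called in either fit.

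Other mitochondrial lists gave few calls without the block. The counts of this and the preceding lists stand beside 10.5% of all genes called higher and 5.91% lower without the block, and 18.2% and 13.9% with it. Of 76 mitochondrial ribosomal proteins, 0 were called higher and 2 lower (Mrpl38, -0.23, and Mrps26, -0.22), and 11 were called lower with the block. Their median difference was -0.037 with 26 values above 0, and -0.056 with 10 above 0 without pcDNA3 replicate 2. Of 23 import genes 0 were called without the block, 4 had an unadjusted p under 0.05, and 5 were called lower with the block, including Tomm20 (-0.13) and Tomm70a (-0.20), receptors of the outer membrane. Of 19 genes of the TCA cycle and pyruvate dehydrogenase, Pcx, which makes oxaloacetate from pyruvate, rose by 0.31 (adjusted p = 0.0259). In the same list Dld, the shared dehydrogenase subunit, fell by 0.28 (adjusted p = 0.0116) and Pdhx, a structural subunit of pyruvate dehydrogenase, fell by 0.16 (adjusted p = 0.0451). With the block 4 of the 19 were called higher, including Idh2 (0.18) and Fh1 (0.17), and 3 lower. Citrate synthase (Cs) differed by -0.0016 ± 0.059 (SE). The 6 carrier and uncoupling genes held 0 calls in either fit and 0 with an unadjusted p under 0.05. Differences between these lists and the subunit genes were not tested.

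**Figure D5:**
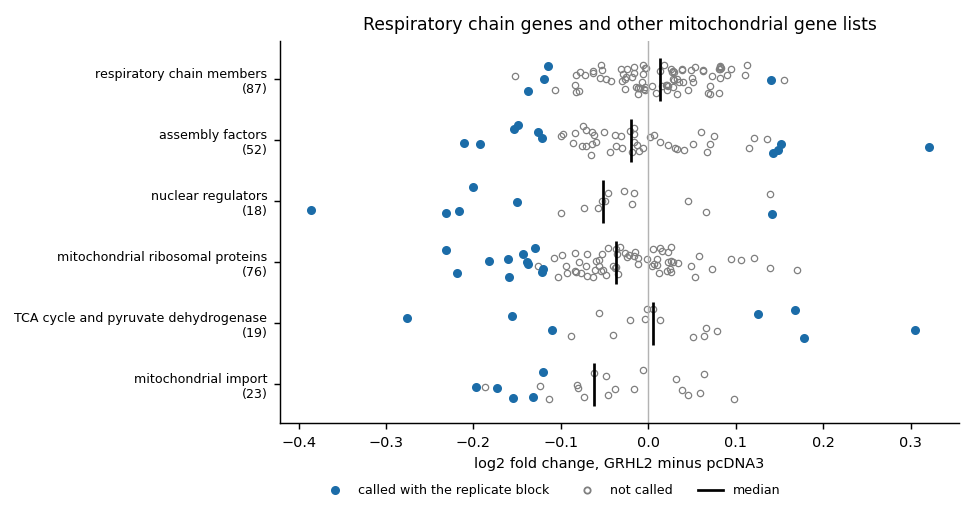
Fitted log2 fold change (GRHL2 minus pcDNA3) of each gene in the 87 respiratory chain genes and 5 other mitochondrial lists (number of genes in brackets), with filled points for genes called with the replicate block, open points for the rest and a black line at each median; vertical scatter only separates points. The 87 genes stay between -0.15 and 0.16 with a median of 0.014, while single genes of other lists reach -0.39 (Gabpb1) and 0.32 (Surf1).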

How the data were processed

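RNA-seq of 8 BMEL samples was used, 4 GRHL2 and 4 pcDNA3, with groups and replicate numbers read from the sample titles. The study's figure legend names independent biological replicates. The members and gene lists were chosen with earlier results of these data known. The submitters' processing notes name HISAT2 2.2.1, HTSeq 0.9.1 and DESeq2 1.40.2, while the methods name other versions of HISAT2 and DESeq2. By the methods, reads were mapped to mm10 and counted without strand, genes with fewer than 10 reads in total were removed, and rlog values were corrected for transcript length. The methods were taken to cover the BMEL samples, which they do not state outright. The name of the deposited table says FPKM, but its entries are log2 values, 7190 of them below 0. Read depth is therefore unknown, and rlog shrinks differences of genes with few reads.

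The values were tested as deposited, with no pseudocount, over all 18671 genes using R 4.3.3 and the package limma 3.58.1 (2 groups, trended empirical Bayes, calls at a Benjamini-Hochberg adjusted p under 0.05). Intervals are 95% intervals of single genes. Single genes were also tested with an exact two-sided permutation test. Its smallest p, 0.0286, follows for any gene whose groups do not overlap, so it only restates that separation. This test gave 0.0571 for Ndufab1 and Ndufa12 and 0.0857 for Cox6b1. Summaries used Python 3.11.15. The script was tested on simulated data. P-values measure the spread between these samples. Same-numbered samples deviated together (Pearson r across genes of 0.474, 0.565, 0.549 and 0.645 for numbers 1 to 4), with the numbers taken from the titles, so a fit with the number as a block is given where it changes a call. GRHL2 replicate 3 correlated slightly more with pcDNA3 replicate 4 (0.602).

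Named with full values are members called, apart between groups, highest or lowest in a complex, or isoforms of complex IV; other genes named were picked by their role or after their values were seen. Positions, promoters and exon overlaps are from GRCm38 annotation matched by symbol. Alternatives were scaling to an equal upper quartile or to an equal sum, no trend, a mean of at least 5, a term for replicates 1 and 2 against 3 and 4, a correction for GC content and length (18430 genes), the block and each sample left out. Blocked fits at equal upper quartile or sum, and without both samples of a number, were added after the data were seen.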

Additional observations from a re-analysis of the deposited data

Results flagged for a closer look

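In 50 groups of 4 samples (the named genes and the medians of the members and complexes), 9 held a sample whose gap to the nearest other was too large a share of the group's range by Dixon's 95% criterion. Chance flags about 1 in 20 groups, or 2.5 of 50, and the groups share genes and samples. Of the 9, 5 were pcDNA3 replicate 2 as the lowest control: Sdha at 12.17 (next 12.29), Cox6a1 at 11.36 (next 11.55), the centred median of the 87 genes at -0.12 (next 0.026), that of complex I at -0.11 (next 0.025) and that of complex III at -0.22 (next 0.020). GRHL2 replicate 2 was the highest GRHL2 sample for Atp5g1 at 8.25 (next 8.08) and for Ndufa4l2 at 1.16 (next 1.08). Ndufa4l2 was also far above the other controls in pcDNA3 replicate 1, at 1.13 (next 1.07). GRHL2 replicate 4 had the highest centred median of complex V among GRHL2 samples, at 0.057 (next -0.0048). No explanation of these values was tested.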

How the results depend on the processing

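The median difference of the 87 genes stayed between -0.030 and 0.038 over the alternatives. Of the named genes and counts, 0 reversed a called direction. Counts of members called higher and lower were 0 and 1 in the main fit, 1 and 3 with the replicate block, 1 and 3 with the term for replicates 1 and 2, 2 and 0 at an equal upper quartile (Cox7a1 and Sdha higher), 2 and 2 there with the replicate block, 1 and 0 at an equal sum, 8 and 2 there with the replicate block, 0 and 2 without the trend, 0 and 1 with a mean of at least 5 (81 members), 1 and 0 with the GC and length correction and 1 and 4 when the block was added. Leaving out 1 sample gave 0 to 1 higher (Sdha without GRHL2 replicate 2) and 0 to 1 lower. In blocked fits without replicate 1, 2, 3 or 4 in both groups the counts were 2 and 1, 2 and 9, 1 and 2, and 1 and 2. Sdha was called in 13 of 22 alternatives and Atp5pb in 11, and their signs held in all 22. Counts over all genes were 1957 higher and 1104 lower in the main fit, 3396 and 2589 with the block, 3270 and 2478 with the batch term, 3064 and 972 at an equal upper quartile (4583 and 2091 blocked), 2912 and 869 at an equal sum (4943 and 2018 blocked), 1647 and 1158 without the trend, 715 and 899 with a mean of at least 5, and 1657 and 1279 with the GC and length correction (3019 and 2810 blocked). Without 1 sample they were 1326 to 1848 and 690 to 1036. The cause of these shifts was not tested. The number of samples and the unknown depth limit what small differences could be seen.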
